A study of Arabidopsis thaliana with 12 samples.

Results

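BCAT4 (AT3G19710) encodes a branched-chain-aminotransferase-type enzyme of Arabidopsis thaliana, and its transcript was followed through the day in seedlings that overexpress the clock gene CIRCADIAN CLOCK ASSOCIATED 1 (CCA1-ox). The gene was represented by the probe set that the platform annotation pairs with it, 257021_at. It was the 1 such probe set among 22746 that were not chip controls, and BCAT4 was 1 of 7572 named genes that could be tested. RNA came from the aerial part of CCA1-ox seedlings of the Columbia background, aged 10 days. The growth medium was full-strength MS agar containing 1% sucrose, and each day had 16 h light followed by 8 h dark. Seedlings were harvested at Zeitgeber time (ZT, hours after lights on) 0, 6, 12 and 18, with 3 arrays at each time, so that ZT12 lay 4 h before lights off and ZT18 lay 2 h after it. All arrays carried the same overexpressed gene, and wild-type seedlings were not analysed here, so the values describe time of day within 1 genotype. The sources used here do not say whether the line is a single transformant or whether plants were pooled. The platform table pairs no probe set with CCA1, so the overexpression was not checked.

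Glucosinolates are sulfur-rich defence compounds of the cabbage order, which release toxic products when leaf tissue is crushed and myrosinase enzymes reach them. Many of those in Arabidopsis leaves are built from methionine whose side chain has first been lengthened. BCAT4 acts at the entry to that lengthening: it removes the amino group of methionine in the cytosol, and the resulting oxo acid passes into the chloroplast, where a cycle of condensation, isomerisation and decarboxylation adds carbon. The lengthened amino acid then receives the core glucosinolate structure, its side chain is modified, and transporters of the GTR type move the product through the plant.

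Expression values are on the log2 scale, so that a difference of 1 is a doubling of signal. Array medians ran from 6.27 to 6.43, the values have a floor at 2.06, and probe sets were tested where at least 3 arrays reached 4, the detection limit used. Differences between any 2 arrays of one time had an SD of 0.222 to 0.499 across probe sets. Of the 10 listed markers of green aerial tissue, 3 had a probe set, and LHCB4.2, RCA and SBPASE all lay between 12.76 and 14.83 on every array; each rose between ZT0 and ZT6 (adjusted p = 7.41e-05, 0.00196 and 6.56e-05). Of the 10 listed root markers, 2 had a probe set: EXPA7 was at 2.06 on every array, and PYK10, a beta-glucosidase gene, lay between 12.55 and 13.44. PYK10 was higher at ZT6 than at ZT0 (adjusted p = 0.0147), a call lost with median centring and without ZT0 replicate 1 or ZT0 replicate 2 (adjusted p = 0.0644, 0.0530 and 0.0680), and higher at ZT12 than at ZT0 (adjusted p = 0.00131). Of the 3 listed markers of myrosin cells, which hold myrosinase, only FMA (FAMA) had a probe set, and TGG1 and TGG2 did not. FMA was lower at ZT6, with 7.60 ± 0.08, than at ZT0, with 8.41 ± 0.27 (SD, n = 3, adjusted p = 0.00159). A change of 1 gene does not show a change in these cells. The part of these marker changes in the results was not tested. In a whole aerial part, fewer cells of a type and less RNA per cell cannot be told apart. The time of each array was taken from its title. A separate characteristic for the time of harvest disagreed with the title on 9 of 12 arrays, and grouped by that characteristic no probe set passed limma's F-test (0 of 14016, with 34 at an unadjusted p under 0.05, against 9827 by the titles) and the F-test of BCAT4 gave adjusted p = 0.999.

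BCAT4 RNA was high in the light and low around the end of the night. The 3 arrays measured 7.76, 7.96 and 9.09 at ZT0, 11.42, 11.24 and 11.17 at ZT6, then 11.76, 11.76 and 11.65 at ZT12, and 9.81, 9.42 and 9.30 at ZT18. No array of one time overlapped those of another, and even the lowest value stood 3.76 above the detection limit. Means ± SD (n = 3) were 8.27 ± 0.72 at ZT0, 11.28 ± 0.13 at ZT6, then 11.72 ± 0.06 at ZT12 and 9.51 ± 0.27 at ZT18. From low to high the order was ZT0, ZT18, ZT6 and ZT12. Differences among times held 95.01% of the variance of BCAT4 over the 12 arrays.

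**Figure D1:**
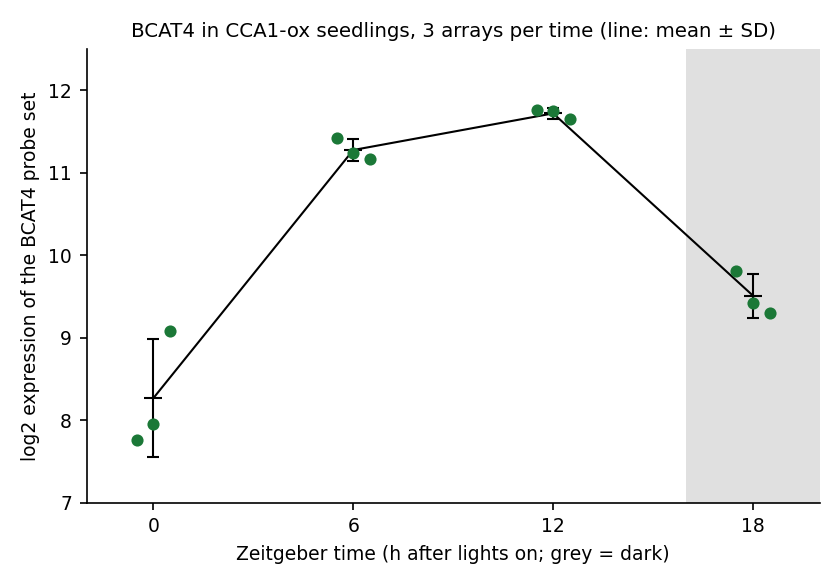
The log2 expression of the BCAT4 probe set is plotted against Zeitgeber time in hours, with 1 point per array. The mean ± SD of 3 arrays is a black line. Grey marks the dark after lights off, and the dark before ZT0 is not shaded. The ZT6 and ZT12 arrays lie between 11.17 and 11.76, and the ZT0 and ZT18 arrays between 7.76 and 9.81.

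The 4 times differed in a moderated F-test across all probe sets (F = 73.1, adjusted p = 6.95e-07). A difference was common in these seedlings, since 70.1% of the 14016 probe sets tested passed the same F-test. The size of the range was less common: the highest and lowest time means of BCAT4 were 10.96-fold apart, and 1.48% of the tested probe sets had a range at least as large (rank 208).

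The first 6 h of light brought the steepest change between times 6 h apart. BCAT4 averaged 11.28 at ZT6, against 8.27 at ZT0, a log2 difference of 3.01 (SE 0.26, adjusted p = 1.19e-06). This is 8.05-fold, with a 95% confidence interval of 5.41-fold to 11.99-fold. Of all tested probe sets 56% passed here, 27.6% of them all being higher at ZT6, and BCAT4 ranked 110 by size among those higher. The closest arrays of the 2 times were 2.09 apart. The estimate moved with the ZT0 arrays, of which replicate 3, at 9.09, lay apart from the other two: without it the difference was 3.42, and without ZT0 replicate 1 it was 2.75.

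Within the light period little further change was resolved. BCAT4 averaged 11.72 at ZT12, against 11.28 at ZT6, a log2 difference of 0.44 (SE 0.26, 95% confidence interval -0.13 to 1.02). The arrays of the 2 times did not overlap, with a gap of 0.22, but the difference did not pass in the fit to all 12 arrays (adjusted p = 0.383). In that comparison 2.12% of probe sets passed, 1.08% higher and 1.04% lower at ZT12. In a fit to the 6 arrays of these 2 times alone, where the spread of the ZT0 arrays does not enter, it passed (adjusted p = 0.0346). ZT6 and ZT12 are therefore neighbours in the order of levels whose difference was called in one fit and not in the other. Of the difference between ZT12 and ZT0, 87.1% had been reached by ZT6.

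Across lights off BCAT4 fell. It averaged 9.51 at ZT18, against 11.72 at ZT12, a log2 difference of -2.21 (SE 0.26, adjusted p = 2.44e-05), or 4.63-fold lower (95% confidence interval 3.11-fold to 6.90-fold). Here 50.5% of probe sets passed, 26.1% higher and 24.4% lower at ZT18, and BCAT4 ranked 213 by size among those lower at ZT18. Arrays of the 2 times were at least 1.84 apart. A sign of RNA quality moved with this comparison. The chip's control transcripts are each read near both ends, and a larger excess of the 3' over the 5' reading goes with shorter labelled RNA. This 3' minus 5' signal was 4.40 ± 0.27 at ZT18, against 3.70 ± 0.21 at ZT12 (SD, n = 3). It was 3.78 ± 0.09 at ZT0 and 3.81 ± 0.14 at ZT6. With this signal as a covariate, BCAT4 was lower at ZT18 by a log2 difference of -1.86 (SE 0.50, adjusted p = 0.0246). Every ZT18 array (4.12 to 4.67) lay above every array of the other times (3.48 to 3.97). Since the fit has a mean per time, the slope of the covariate comes only from differences within times. The adjustment of ZT18 therefore reaches across a range of signal where arrays of different times do not overlap. RNA quality and ZT18 cannot be told apart. The same limit holds for every call at ZT18 given below as kept or lost with the covariate.

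BCAT4 also fell through the remainder of the night. It averaged 8.27 at ZT0, against 9.51 at ZT18, a log2 difference of -1.24 (SE 0.26, adjusted p = 0.00323), or 2.37-fold lower (95% confidence interval 1.59-fold to 3.52-fold). In this comparison 37% of probe sets passed, 18.6% higher and 18.5% lower at ZT0. The gap between the nearest arrays was 0.21, set by ZT0 replicate 3 and ZT18 replicate 3. The difference was -1.65 without ZT0 replicate 3 and -0.99 without ZT0 replicate 1, and it passed with either left out. With the 3' minus 5' covariate it was -1.55 (SE 0.46, adjusted p = 0.0463).

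Times 12 h apart gave the same order. BCAT4 averaged 11.72 at ZT12, against 8.27 at ZT0, which is 10.96-fold higher (95% confidence interval 7.36-fold to 16.3-fold, adjusted p = 4.41e-07). Here 54% of all probe sets passed, 25.6% higher and 28.4% lower at ZT12, and 0.835% changed at least as much in either direction. It averaged 9.51 at ZT18, against 11.28 at ZT6, which is 3.40-fold lower (95% confidence interval 2.29-fold to 5.07-fold, adjusted p = 0.000154). Here 46.2% of probe sets passed, 22.8% higher and 23.4% lower at ZT18, and the covariate left a log2 difference of -1.48 (adjusted p = 0.0314).

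**Figure D2:**
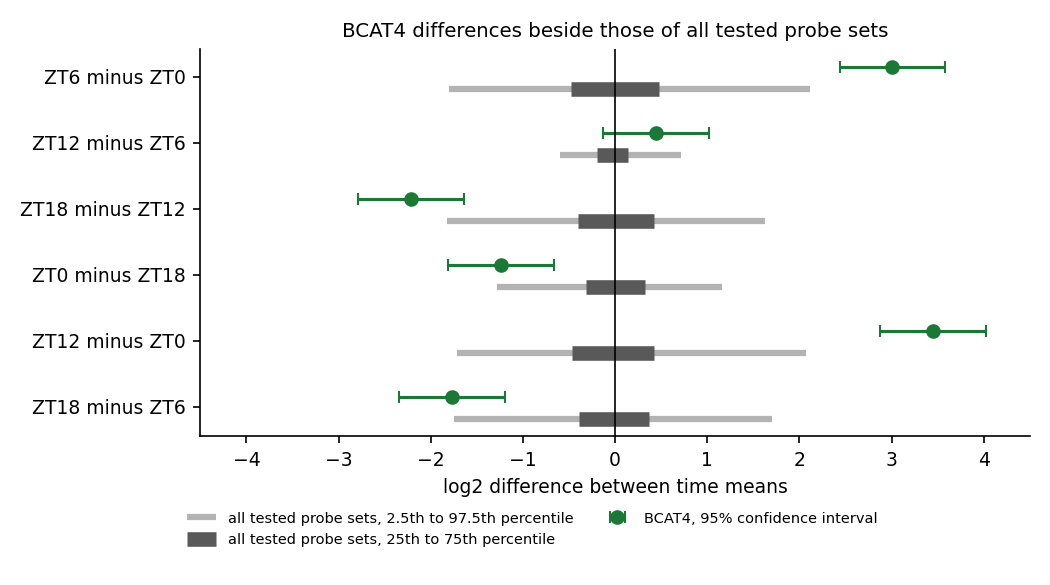
For each of the 6 comparisons, the green point is the log2 difference of BCAT4 with its 95% confidence interval, and the grey bars show all 14016 tested probe sets (dark, between the quartiles; light, the middle 95%). BCAT4 lies beyond the light bar for ZT6 minus ZT0, ZT18 minus ZT12, ZT12 minus ZT0 and ZT18 minus ZT6, and inside it for ZT12 minus ZT6 and ZT0 minus ZT18.

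A cosine of 24 h through the 4 time means described the pattern with an amplitude of 1.94 (SE 0.13, log2 scale) and a peak at 10.2 h after lights on (SE 0.26 h). The peak stayed between 10.1 h and 10.4 h whichever single array was left out. The departure from a cosine that 4 times can show, a 12 h term, was -0.20 (SE 0.09) and did not pass (adjusted p = 0.122, where 30.5% of probe sets passed in either direction). Without ZT0 replicate 3 it was -0.30 and passed (adjusted p = 0.00129). With 4 times in 1 day, neither a period nor the exact hour of the peak could be tested.

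The rest of the glucosinolate pathway could be seen only in part. Of 64 genes on 6 lists, 12 had a named probe set and 11 of these were tested, BCAT4 among them. AOP3, a side-chain gene, was at or near the floor on every array (2.06 to 2.16) and was not tested. BCAT4 was the only measured gene of the chain elongation list, so the other elongation enzymes were not analysed here, and neither were those of indole glucosinolates. All of the other 10 genes passed the F-test among the 4 times, as did 70.1% of all probe sets.

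Of these other 10 genes, 8 rose and 2 fell between ZT0 and ZT6, where 27.6% of all probe sets were called higher and 28.4% lower. Their median log2 difference, ZT6 minus ZT0, was 1.48, against -0.01 over all probe sets tested. Between ZT6 and ZT12, where few probe sets passed at all, none of the 10 passed by limma (4 had an unadjusted p under 0.05), with a median of 0.22, against -0.03. Between ZT12 and ZT18, 8 fell and 1 rose, where 24.4% of all probe sets were called lower and 26.1% higher. The median was -1.51, against 0.01 over all probe sets. Between ZT18 and ZT0, 2 fell and 8 did not pass, a share near the 18.5% of all probe sets called lower. The median was -0.23, against 0.00. That last count rested on a few arrays. With BCAT4 counted in, 3 glucosinolate genes fell between ZT18 and ZT0, but 5 did without ZT0 replicate 3 and 1 did without any one of ZT0 replicate 1, ZT0 replicate 2 or ZT18 replicate 1. With the 3' minus 5' covariate, 6 of the 11 fell between ZT12 and ZT18 and 1 of the 11 between ZT18 and ZT0.

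Among genes on the core structure list, GSTU20, a glutathione S-transferase, changed most. Its arrays measured 9.92, 9.49 and 10.18 at ZT0, 12.56, 12.47 and 12.29 at ZT6, then 12.92, 12.71 and 12.98 at ZT12, and 10.33, 10.14 and 10.51 at ZT18. The ZT6 and ZT12 arrays did not overlap those of ZT0 and ZT18. GSTU20 was 5.96-fold higher at ZT6 than at ZT0 (adjusted p = 8.54e-08) and 5.83-fold lower at ZT18 than at ZT12 (adjusted p = 1.37e-07). Its log2 difference between ZT0 and ZT18 was -0.46, against -1.24 for BCAT4. That call of GSTU20 (adjusted p = 0.0373) was lost with no filter, with median centring, with no variance trend, with the covariate and in a fit to those arrays alone. It was also lost without any one of 5 arrays, and the difference fell to -0.28 without ZT0 replicate 2 (adjusted p = 0.153).

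UGT74B1, a glucosyltransferase that adds the sugar of the glucosinolate core, averaged 7.78 ± 0.65 at ZT0, 9.56 ± 0.21 at ZT6, then 9.65 ± 0.15 at ZT12 and 8.22 ± 0.42 at ZT18 (SD, n = 3). AT2G31790, on the same list, averaged 8.03 ± 0.24, 9.72 ± 0.19, 9.86 ± 0.11 and 8.26 ± 0.46 at the same 4 times. Both rose between ZT0 and ZT6 and fell between ZT12 and ZT18. The fall of UGT74B1 did not pass with the covariate (adjusted p = 0.152).

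On the side-chain list, AOP1, a dioxygenase-type gene, averaged 6.66 ± 0.54 at ZT0, 8.16 ± 0.15 at ZT6, then 8.45 ± 0.06 at ZT12 and 6.75 ± 0.50 at ZT18. It rose 2.83-fold between ZT0 and ZT6 and fell 3.25-fold between ZT12 and ZT18, the fall not passing with the covariate (adjusted p = 0.164). AT2G25450, on the same list, averaged 12.07 ± 0.08, 12.96 ± 0.09, 13.22 ± 0.15 and 12.06 ± 0.23. It had the smallest range of the 5 core and side-chain genes, 1.16 on the log2 scale, against 3.45 for BCAT4.

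The transporter genes ran in different directions. GTR1 arrays measured 7.31, 6.96 and 8.12 at ZT0, 9.91, 9.74 and 9.61 at ZT6, then 10.03, 9.89 and 9.88 at ZT12, and 8.32, 8.33 and 7.90 at ZT18. As in BCAT4, ZT0 replicate 3 was the highest of the ZT0 arrays, and here it overlapped the ZT18 arrays. GTR1 was 4.88-fold higher at ZT6 than at ZT0 (adjusted p = 4.11e-06). GTR2 averaged 7.43 ± 0.46 at ZT0, 6.43 ± 0.08 at ZT6, then 7.21 ± 0.28 at ZT12 and 7.66 ± 0.09 at ZT18. It was 2.00-fold lower at ZT6 than at ZT0 (adjusted p = 0.00124), and its differences in the 3 other comparisons of times 6 h apart did not pass.

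The regulators also differed among themselves. MYC3 and MYC4 encode bHLH transcription factors that act with MYB factors on glucosinolate genes. MYC3 was lower in the light, with 9.01 ± 0.23 at ZT0, 8.53 ± 0.17 at ZT6, then 8.45 ± 0.14 at ZT12 and 9.29 ± 0.15 at ZT18. MYC4 was higher in the light, with 7.30 ± 0.20, 8.25 ± 0.29, 8.21 ± 0.37 and 7.41 ± 0.14. Both passed between ZT6 and ZT0 (adjusted p = 0.0138 for MYC3 and adjusted p = 0.00126 for MYC4) and between ZT18 and ZT12 (adjusted p = 0.000409 and 0.00477), where neither passed with the covariate (adjusted p = 0.153 and adjusted p = 0.306). The difference of MYC3 between ZT6 and ZT0 did not pass without ZT0 replicate 3 (adjusted p = 0.0589) or ZT6 replicate 1 (adjusted p = 0.0655). AT1G04770, on the regulator list, averaged 7.23 ± 0.44 at ZT0, 8.68 ± 0.35 at ZT6, then 9.33 ± 0.46 at ZT12 and 6.98 ± 0.31 at ZT18. The MYB regulators of the pathway were not analysed here.

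**Figure D3:**
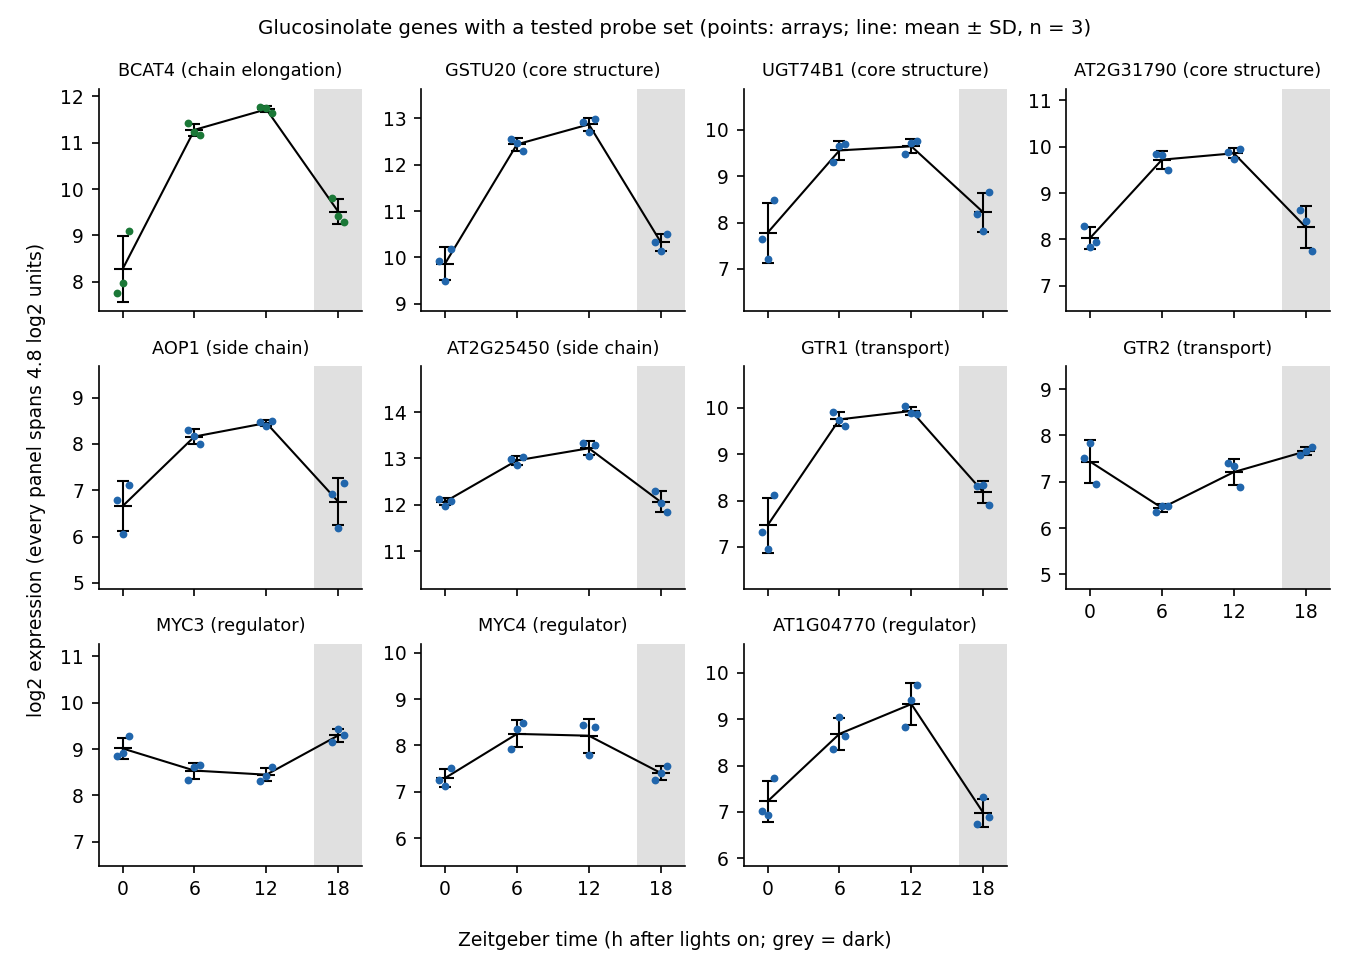
Each panel plots the log2 expression of 1 glucosinolate gene against Zeitgeber time in hours. Points are the 3 arrays of each time, and the line is mean ± SD. Grey marks the dark after lights off, and the dark before ZT0 is not shaded. Every panel has the same span of log2 units. BCAT4 (green) has the widest range of time means, 3.45, and GTR2 and MYC3 have their lowest means in the light.

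Other members of the aminotransferase family had narrower ranges. Of 7 listed BCAT genes, 3 had a probe set. ATBCAT-5 averaged 9.15 ± 0.10 at ZT0, 9.34 ± 0.09 at ZT6, then 9.18 ± 0.18 at ZT12 and 8.86 ± 0.23 at ZT18, a range of 0.48 on the log2 scale. AT1G50110 averaged 5.01 ± 0.40, 5.50 ± 0.12, 5.66 ± 0.27 and 5.13 ± 0.40, a range of 0.65. It had the identical value 5.3592 on ZT0 replicate 3, ZT6 replicate 2, ZT12 replicate 1, ZT18 replicate 2 and ZT18 replicate 3. The cause of this was not tested, and it limits what the range and the tests of this gene can show. ATBCAT-5 passed the F-test (adjusted p = 0.0380), a call lost with the covariate (adjusted p = 0.295), with no filter, with median centring and without any one of 6 arrays. AT1G50110 did not pass (adjusted p = 0.0812), but did with the covariate (adjusted p = 0.0270), with the replicate block (adjusted p = 0.0286) and without ZT0 replicate 3 (adjusted p = 0.0409).

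Both measured genes of methionine synthesis and use were called lower at ZT6 than at ZT0, where BCAT4 rose. So were 28.4% of all probe sets. MGL, the gene for methionine gamma-lyase, which breaks methionine down, measured 11.38, 11.56 and 11.54 at ZT0, 9.87, 9.35 and 9.45 at ZT6, then 9.33, 9.23 and 8.89 at ZT12, and 10.59, 10.16 and 10.25 at ZT18. All ZT0 and ZT18 arrays lay above all ZT6 and ZT12 arrays. MGL was 3.83-fold lower at ZT6 than at ZT0 (adjusted p = 7.95e-07) and 2.28-fold higher at ZT18 than at ZT12 (adjusted p = 6.95e-05). CBL, the gene for cystathionine beta-lyase of methionine synthesis, was 1.32-fold lower at ZT6 than at ZT0 (adjusted p = 0.00897). Its difference between ZT12 and ZT18 did not pass (adjusted p = 0.0506). These were the 2 of 11 listed genes of methionine synthesis and use that had a probe set.

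Of the 11 listed genes of branched-chain amino acid synthesis, 3 were measured: AT2G31810 (AHASS2), AT3G58610 (KARI) and AT3G23940 (DHAD). None of them is on the chain elongation list. AT2G31810 fell between ZT0 and ZT6, with 8.06 ± 0.22 at ZT6, against 10.06 ± 0.24 at ZT0 (adjusted p = 1.93e-07). It rose again between ZT12 and ZT18, with 9.84 ± 0.04 at ZT18, against 7.74 ± 0.03 at ZT12. AT3G23940 rose 1.28-fold between ZT0 and ZT6 (adjusted p = 0.0155), a call lost with median centring (adjusted p = 0.0662) and without ZT6 replicate 2 (adjusted p = 0.0657), and AT3G58610 did not pass the F-test (adjusted p = 0.190). Of 17 listed genes of sulfate uptake and assimilation, 3 were measured. APS3, an ATP sulfurylase gene, averaged 8.83 ± 0.16 at ZT0, 9.17 ± 0.10 at ZT6, then 9.80 ± 0.06 at ZT12 and 10.19 ± 0.24 at ZT18, and passed the F-test (adjusted p = 5.89e-06). Its highest mean was at ZT18, where BCAT4 had already fallen. The rise of APS3 between ZT12 and ZT18 (adjusted p = 0.0244) was lost in a fit to those arrays alone (adjusted p = 0.0517). It was also lost without ZT12 replicate 2, ZT12 replicate 3 or ZT18 replicate 1 (adjusted p = 0.0738, 0.0524 and 0.0892). SIR, the sulfite reductase gene, and APS4, another ATP sulfurylase gene, did not pass the F-test (adjusted p = 0.0849 and adjusted p = 0.222). APS4 passed with the covariate (adjusted p = 0.0322), and SIR passed without ZT0 replicate 3, ZT12 replicate 3 or ZT18 replicate 2 (adjusted p = 0.0358, 0.0266 and 0.0331).

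Likeness to BCAT4 was measured as Pearson's r of log2 values over the 12 arrays, for the other 7571 named genes tested. These arrays share their 4 harvest times, so genes that are high in the light tend to have a high r: 437 genes (5.77%) reached 0.9, and 438 (5.79%) were at -0.9 or lower. The nearest was AT3G47540 (r = 0.993), followed by GTR1 (r = 0.988), AT1G73600 (r = 0.984) and AT1G80850 (r = 0.983). AT5G67150, AT5G02890, AT5G63180, AT5G58390, AT1G67360 and AT3G10840 completed the nearest 10, down to r = 0.978. GTR1 was thus the only gene of the glucosinolate lists among them. GSTU20 was rank 42 (r = 0.962), UGT74B1 rank 167 (r = 0.938) and AOP1 rank 354 (r = 0.911). The other genes of these lists had r = 0.921 (AT2G31790), 0.911 (AT2G25450), 0.868 (AT1G04770), 0.852 (MYC4), -0.611 (GTR2) and -0.703 (MYC3).

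AT3G47540 measured 5.87, 6.27 and 7.31 at ZT0, 9.82, 9.32 and 9.45 at ZT6, then 9.56, 9.62 and 9.59 at ZT12, and 7.91, 7.57 and 7.54 at ZT18. Its ZT0 arrays lay in the same order as those of BCAT4. AT1G73600 measured 7.17, 7.21 and 8.24 at ZT0, 11.36, 11.11 and 11.16 at ZT6, then 11.54, 11.33 and 11.55 at ZT12, and 9.66, 9.21 and 9.64 at ZT18. Its log2 difference of 3.93 between ZT12 and ZT0 exceeded that of BCAT4, 3.45. At the other end were AT1G77020 (r = -0.989), AT1G06630 (r = -0.988) and AT3G25150 (r = -0.985). AT3G25150 averaged 10.72 ± 0.21 at ZT0, 8.64 ± 0.18 at ZT6, then 8.48 ± 0.07 at ZT12 and 9.96 ± 0.30 at ZT18.

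**Figure D4:**
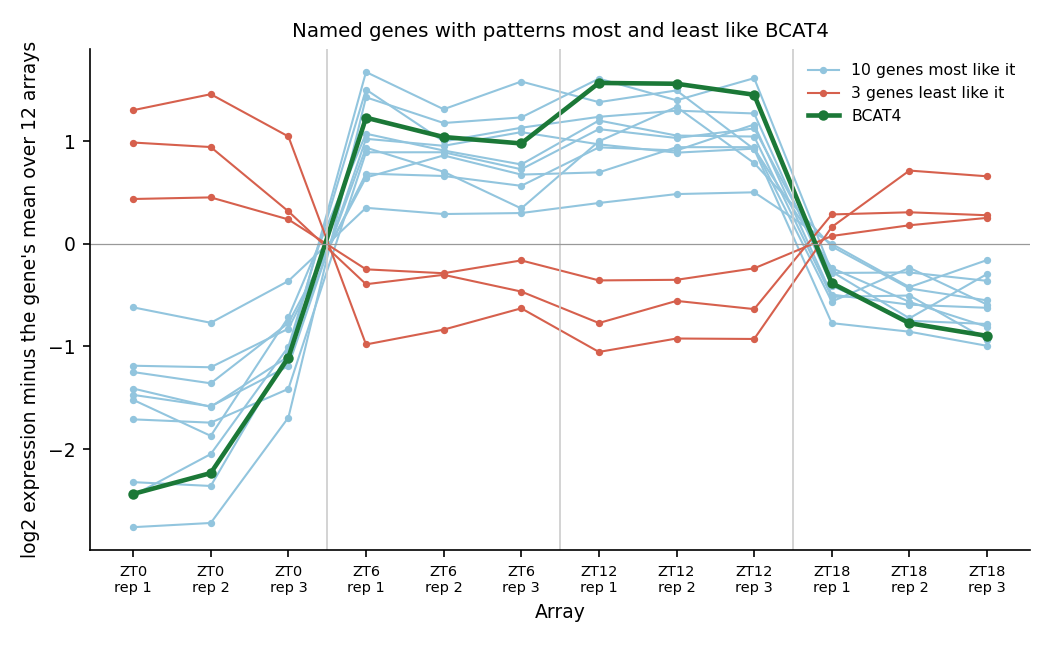
For each of the 12 arrays the log2 expression of a gene minus its own mean is plotted for BCAT4 (green), the 10 named genes most like it (blue) and the 3 least like it (red), with lines joining the values of 1 gene and grey lines parting the times. The blue genes, chosen for this likeness, lie above their own mean on the ZT6 and ZT12 arrays and below it on the ZT0 arrays.

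Membership of that list moved with single arrays and with the measure of likeness. All 10 genes, like BCAT4, were highest in replicate 3 among the ZT0 arrays, which their choice by r over these arrays favours. Of all tested probe sets 38.5% were highest there. Only 3 of the 10 stayed among the nearest 10 without ZT0 replicate 1 and 4 without ZT0 replicate 3, against 6 without ZT12 replicate 2, ZT18 replicate 2 or ZT18 replicate 3 and 7 to 10 without any other array. By Spearman's rho over the 12 arrays 2 of the 10 stayed, and by the 4 time means alone 1 did.

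The deviations of single arrays from their time mean do not hold the differences between times. For BCAT4 they were largest at ZT0, where replicate 3 lay 0.82 above the mean and replicates 1 and 2 lay below it (-0.51 and -0.31). The SD of BCAT4 at ZT0, 0.72, was matched or exceeded by 1.87% of tested probe sets. Among the ZT0 arrays, 7 of the other 10 glucosinolate genes were also highest in replicate 3, as were 38.5% of all tested probe sets. GTR1 deviated there by 0.65, UGT74B1 by 0.71 and AOP1 by 0.46, and GTR2 by -0.49. Across the 12 arrays the deviations of BCAT4 and GTR1 had r = 0.869, those of BCAT4 and GTR2 r = -0.704, and those of BCAT4 and GSTU20 r = 0.496. For the remaining glucosinolate genes r ran from 0.093 (MYC4) to 0.545 (UGT74B1). GTR1 was among the genes chosen by r over these same arrays, which favours a high value. BCAT4, GTR1 and GTR2 each had their largest deviation on ZT0 replicate 3. These pairs share the same libraries and are given as a description. In the 3' minus 5' signal ZT0 replicate 3, with 3.74, lay between replicates 1 and 2, with 3.71 and 3.88.

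**Figure D5:**
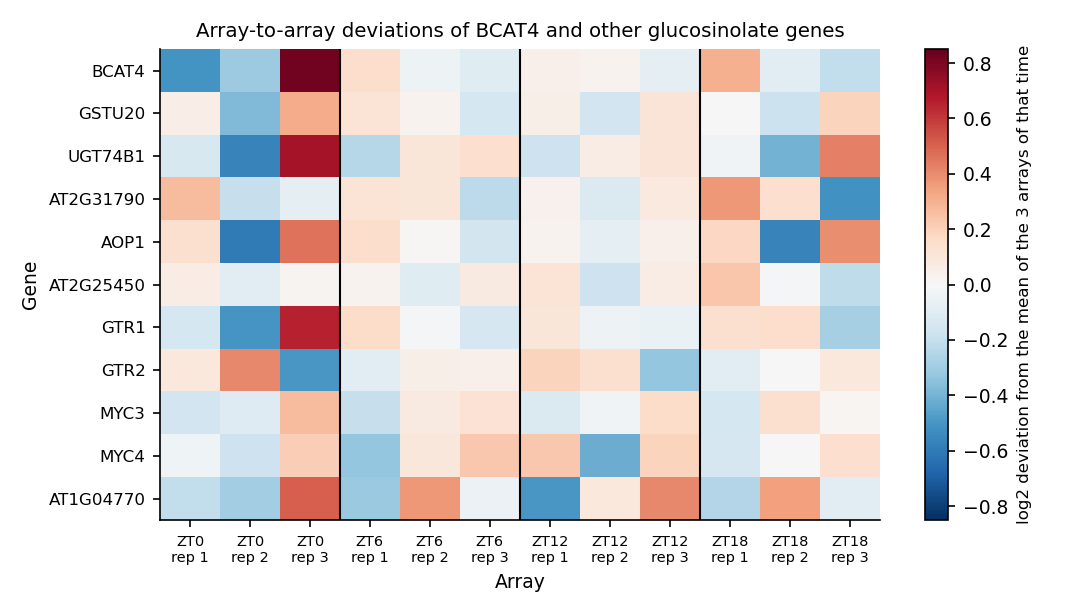
Each cell is the log2 deviation of 1 gene on 1 array from the mean of the 3 arrays of that time, in red where higher and in blue where lower. The strongest column is ZT0 replicate 3, with 0.82 for BCAT4, 0.71 for UGT74B1 and -0.49 for GTR2.

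Of the chromosomal neighbours of BCAT4, 1 could be tested. In RefSeq order on chromosome 3, IKU2 and AT3G19690 precede BCAT4, and both were at the floor of 2.06 on all arrays. ARC5 follows it and is not paired with a probe set here. The next gene, AT3G19740, averaged 9.01 ± 0.12 at ZT0, 8.91 ± 0.10 at ZT6, then 8.68 ± 0.15 at ZT12 and 9.09 ± 0.21 at ZT18, and did not pass the F-test (adjusted p = 0.0565), but did with median centring (adjusted p = 0.0179), with the replicate block (adjusted p = 0.0253) and without ZT12 replicate 2 or ZT18 replicate 1 (adjusted p = 0.0404 and 0.0168).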

How the data were processed

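Affymetrix arrays were hybridised with biotin-labelled cRNA, primed with oligo(dT), per the labels' protocols. The authors deposited log2 expression values, 1 per probe set and array, with no pooling of replicates. Per the submitters' processing notes the tools included R 3.1, affy 1.42.3 and GCRMA, whose roles and settings are not stated there. No genome build is stated, so no coordinates are shown. The values have a floor, which hides changes of dim genes. The number of arrays limits precision, and since nothing says whether replicates were separately grown, p-values measure the spread between arrays, which may be technical.

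Of 22810 probe sets 64 were controls; 14016 reached 4 on at least 3 arrays and were fitted with limma 3.58.1 (R 4.3.3, lmFit with a mean per time, eBayes with a variance trend). P-values (two-sided) were adjusted by Benjamini-Hochberg over all 14016 within each comparison, with a threshold of 0.05. Time points were taken from sample titles. The platform table paired 13513 probe sets with 1 gene, 503 with several and did not list 8730; symbols were updated through Entrez identifiers (13286 of 13356 matched, RefSeq TAIR10.1), and a gene with several probe sets kept the one with the highest mean. Named genes were BCAT4, all tested genes of the glucosinolate and BCAT lists, up to 2 of each other list, and the 10 most and 3 least like BCAT4; APS4, AT3G58610, the marker genes and the neighbours were given in addition, after their values were seen. BCAT4 and the lists were chosen with earlier results of these data known. Code was tested on simulated data with known changes. Nothing says what a replicate number marks. Deviations from time means correlated over 0.1 for all 3 same-numbered pairs of ZT0 with ZT12 (0.19 to 0.40) and of ZT0 with ZT18 (0.19 to 0.32), so the numbers were taken to pair the arrays there, but not for all pairs in the other 4 comparisons. Over all comparisons 9 of 18 same-numbered pairs were over 0.1 (-0.15 to 0.40), against 6 of 36 differently numbered pairs (-0.35 to 0.19). Except where a replicate block is named, all values come from the fit without pairing, for ZT0 with ZT12 and ZT0 with ZT18 too. Alternatives were other filters, scalings and variance models, a replicate block, a quality covariate, the other time label and leaving out each array. Figures were drawn with matplotlib 3.10.9.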

Additional observations from a re-analysis of the deposited data

How the results depend on the processing

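For BCAT4, the F-test and the 5 comparisons that passed kept their direction and their call with no filter, with median centring, with quantile normalization, with no variance trend, with the covariate, with the replicate block, and without any single array. The comparison of ZT12 with ZT6 passed with its own arrays alone (0.444, adjusted p = 0.0346) and in no other setting run. Without single arrays the differences ran from 2.75 to 3.42 (ZT6 minus ZT0), 0.39 to 0.52 (ZT12 minus ZT6), -2.36 to -2.11 (ZT18 minus ZT12), -1.65 to -0.99 (ZT0 minus ZT18), 3.20 to 3.86 (ZT12 minus ZT0) and -1.92 to -1.66 (ZT18 minus ZT6). The 12 h term ran from -0.30 to -0.14, the amplitude from 1.83 to 2.12, the peak time from 10.06 h to 10.36 h and F from 57.3 to 284.

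Grouped by the harvest characteristic, a clock time read here with its early morning value as ZT0, which disagrees with 3 other labels, no BCAT4 test passed by limma: F fell to 0.256, the amplitude was 0.447 and the peak time 15.1 h. The differences became -0.42 (ZT6 minus ZT0), 1.04 (ZT12 minus ZT6), -0.39 (ZT18 minus ZT12), -0.23 (ZT0 minus ZT18), 0.62 (ZT12 minus ZT0) and 0.65 (ZT18 minus ZT6), the 12 h term 0.20, and 0 glucosinolate genes were called in any comparison (in the F-test 0 of 11 had an unadjusted p under 0.05). The cause was not tested.

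Whether replicate numbers pair the arrays differed between comparisons, as given with the processing. The replicate block ended no call of BCAT4 (ZT0 minus ZT18, -1.24, adjusted p = 0.00424, and ZT12 minus ZT0, 3.45, adjusted p = 1.69e-06). It left the counts of glucosinolate genes at 3 for ZT0 minus ZT18 and 10 for ZT12 minus ZT0, and changed the F-test calls of AT1G50110 and AT3G19740. It called 1 glucosinolate gene for ZT12 minus ZT6, against 0 without it, and 815 probe sets, against 297.

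Counts of called glucosinolate genes moved as follows. For ZT12 minus ZT6 quantile normalization gave 1, own arrays 2, and leaving out arrays 0 to 1. For ZT0 minus ZT18, 3 became 1 with no filter, with own arrays or with the covariate, and 1 to 5 without single arrays. With the covariate 10 became 6 (ZT18 minus ZT12) and 11 became 7 (ZT18 minus ZT6). Without single arrays the counts, in either direction, were 10 to 11 for ZT6 minus ZT0, ZT18 minus ZT12 and ZT12 minus ZT0. For ZT18 minus ZT6 the count was 11 each time. In the fit to all arrays 9 were higher and 1 lower for ZT12 minus ZT0, and 2 higher and 9 lower for ZT18 minus ZT6. Of all probe sets 56%, 50.5%, 54% and 46.2% passed in these 4 comparisons. Over all probe sets, 297 calls for ZT12 minus ZT6 became 145 with no filter, 752 with own arrays and 27 to 466 without single arrays. The covariate reduced 7078 to 2575 (ZT18 minus ZT12), 5187 to 1964 (ZT0 minus ZT18) and 6478 to 3466 (ZT18 minus ZT6). SBPASE, a marker gene, had -0.36 for ZT18 minus ZT12 and 0.0024 with the covariate.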
